A study of Homo sapiens with 6 samples.

Results

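The 39 genes described here carry out DNA replication and the passage from G1 into S phase. They were chosen by gene symbol from the count table of CCD18Co cells, a line of normal human colon fibroblasts, and all 39 were found among its 60663 genes. The line was transfected for 6 h, with siRNA against *LTBP2* (siLTBP2) or with a pool of non-targeting siRNA (siNT), and was frozen 48 h after transfection. The RNA, cleared of ribosomal transcripts, was sequenced in 6 libraries, 3 per group. No group carried another agent or allele, the silencing was transient, and all the cells came from 1 cell line. The labels do not say that replicates were separate cultures, so p-values measure the spread between these libraries, which may be technical.

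Before S phase, the MCM2-7 helicase is loaded onto origins by the licensing factors CDC6 and CDT1, and it is switched on when CDC45 and the GINS complex join it. Polymerases then copy the strands, held on DNA by the sliding clamp PCNA, which the RFC complex loads, while ribonucleotide reductase and thymidylate synthase supply the nucleotides. Many of these genes are transcribed under the E2F factors, which are freed when cyclin D and cyclin E kinases phosphorylate the retinoblastoma protein.

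*LTBP2*, which encodes an extracellular matrix protein of the latent TGF-beta binding protein family, lies at chr14:74498183-74612378 (GRCh38, minus strand). Its level was 25.0, 23.1 and 21.2 CPM (counts scaled to library size with TMM factors) in the siNT libraries and 6.49, 8.61 and 6.00 CPM in the siLTBP2 libraries. The groups did not overlap, and the log2 fold change was -1.72 ± 0.15 (SE, n = 3 per group; adjusted p = 6.6e-05, edgeR's quasi-likelihood test). Two-sided exact permutation of the 6 libraries gave p = 0.1, the smallest value that 3 against 3 allows.

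Library totals ran from 44663424 to 53576899 counts, and 16920 genes were tested. The 12 fibroblast markers all passed the filter, from *POSTN* with 9 to 60 counts to *VIM* with 239307 to 303609 counts. Of these, 1 was called, *PDGFRB*, at 158 to 178 CPM in siNT and 94.9 to 119 CPM in siLTBP2 (-0.60 ± 0.10; adjusted p = 0.0025). That was 8.33% of the list, against 19.3% of all tested genes. With the replicate number fitted as a block, as described below, all 12 were called, 6 higher and 6 lower. The block called 36.2% of all genes. Of the defining markers of other cell types, *EPCAM*, *CDH1*, *KDR* and *CDH5* reached at most 2 counts in any library, and *SOX10* and *S100B* were at 0. The summed level of the 12 epithelial markers was 40.3 to 52.8 CPM in siNT and 86.0 to 99.5 CPM in siLTBP2, and 4 of the 12 were at 0. *KRT18* rose from 29.4 to 41.1 CPM to 72.1 to 86.7 CPM, and *KRT8* was at 9.23 to 11.3 CPM and 12.3 to 13.4 CPM (adjusted p = 0.0855). The part of these keratins in the results was not tested.

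The promoter sequences come first because many members share a short E2F word. The words searched were TTTCCCGC, TTTCGCGC, TTTGCCGC and TTTGGCGC, on both strands of RefSeq windows (GRCh38.p14) from 250 bases before to 50 bases after a start site. Windows were given for 34 of the 39 genes, and not for *CCND1*, *CCNE2*, *GINS4*, *MCM4* and *MCM5*. The stretches below belong to the 6 members of smallest p that held a word. Each is written 5′ to 3′ on the strand of the gene, with the word, or its reverse complement, in capitals. The pair of TTTCGCGC matches in *MCM2* overlap as a palindrome, and the first is shown.
GINS1, chr20:25407667-25407696, plus strand: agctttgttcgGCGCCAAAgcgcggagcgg
MCM7, chr7:100101388-100101417, minus strand: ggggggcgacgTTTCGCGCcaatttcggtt
MCM7, chr7:100101566-100101595, minus strand: cagctcggaccGCGGGAAAcccggcgcctg
UHRF1, chr19:4909476-4909505, plus strand: gccgagttttcGCGGGAAAaaaatcagagc
UHRF1, chr19:4909948-4910027, plus strand: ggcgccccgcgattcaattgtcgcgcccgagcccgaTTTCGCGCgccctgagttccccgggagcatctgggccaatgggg
E2F2, chr1:23531234-23531311, minus strand: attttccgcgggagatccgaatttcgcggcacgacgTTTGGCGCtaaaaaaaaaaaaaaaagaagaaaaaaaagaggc
POLA2, chr11:65261898-65261927, plus strand: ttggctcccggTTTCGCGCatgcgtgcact
MCM2, chr3:127598402-127598431, plus strand: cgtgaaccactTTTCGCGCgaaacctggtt

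An E2F word was in the window of 21 of 34 members (61.8%), against 6.75% of the 10102 tested protein-coding genes with a window. By window, the share was 51.2% of 43 for the members, 4.92% of 14811 for the tested protein-coding genes and 3.31% of all 35116. Among other cell-cycle genes the share was 29.0% of 31 other replication fork genes and 26.7% of 15 fork protection and checkpoint genes. It was 21.7% of 23 other G1/S regulators, 17.6% of 17 other nucleotide supply genes and 12.5% of 24 G2/M genes. None of the 7 CDK inhibitor genes with a window held a word. The 29 positions lay between -187 and 7 bases from the start, with a median of -35, and 25 of them were before the start. Members that passed the test below and had a window held a word in 6 of 10 cases (60%), and the others in 15 of 24 (62.5%). Both *E2F2*, which was lower in siLTBP2, and *GINS1*, which was higher, thus held the word TTTGGCGC. A match is only a run of letters, and binding was not measured.

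**Figure D1:**
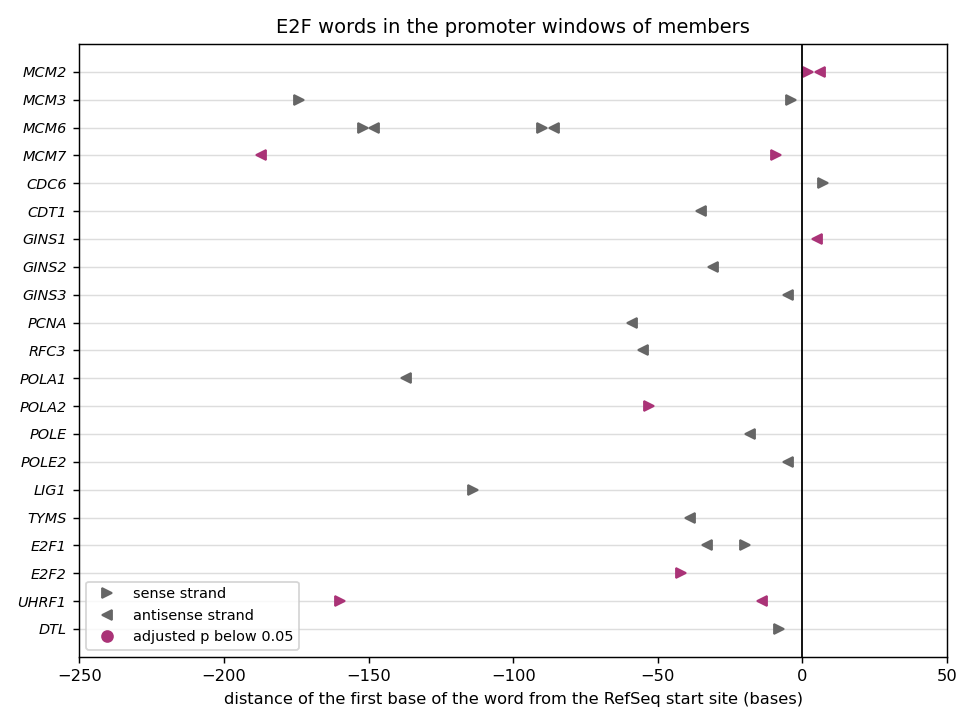
Distance in bases of each E2F word from the RefSeq start site (vertical line at 0) for the 21 members that held one. Arrowheads point right for the sense and left for the antisense strand, and members with adjusted p below 0.05 are in purple. Most words sit just before the start, with a median of -35.

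After silencing, 11 of the 39 members rose, 1 fell and 27 did not pass the test. None of the cyclin E and E2F genes among the 39 was called higher. All 39 members passed the filter on low counts, with 280 to 95817 counts per library. At adjusted p below 0.05, 12 of 39 were called (30.8%), where 19.3% of all tested genes were. Of these, 11 were higher in siLTBP2, with a background of 9.76%, and *E2F2* alone was lower, with a background of 9.51%. The log2 fold change was above 0 in 29 members (74.4%) and in 49.3% of all genes, and its median was 0.23 against -0.01. The median was 0.13 without siNT replicate 1 and 0.15 without siLTBP2 replicate 3. None reached a 2-fold change at adjusted p below 0.01, which 2.57% of all genes did, and the count was also 0 under each alternative fit. At an unadjusted p below 0.05 there were 19 members, 0 of them past 2-fold. That cut is a loose one, as at least 5411 of the 16920 tested genes also passed it. The members ranged from -0.64 to 0.65. In bulk RNA, a change in the share of cells in S phase and a change in RNA per cell cannot be told apart.

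Libraries with the same replicate number deviated together, so the number was also fitted as a block. With that block 23 members were called, 20 higher and 3 lower, where the block called 36.2% of all genes, 18.4% higher and 17.9% lower. All 12 earlier calls were among the 23.

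**Figure D2:**
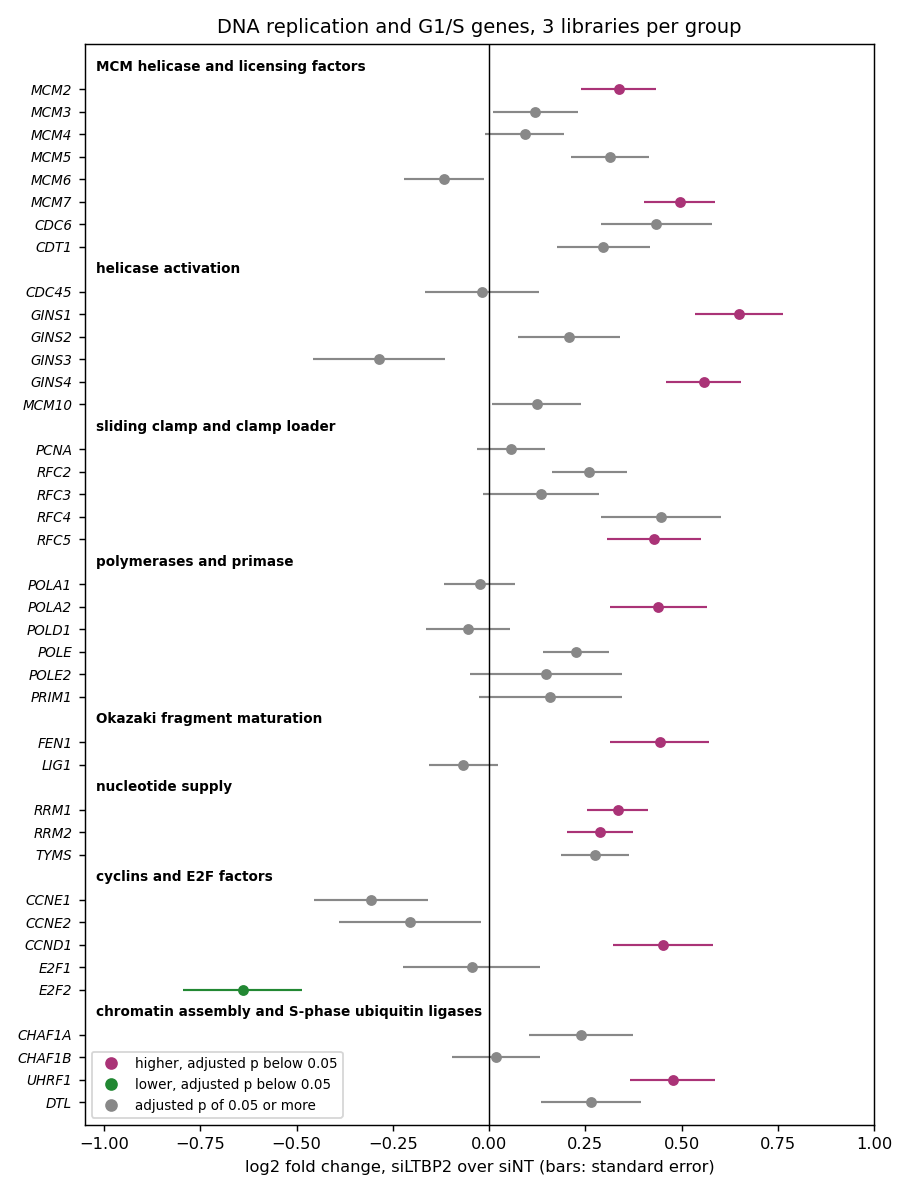
Log2 fold change of siLTBP2 over siNT for the 39 members by role, with standard errors (3 libraries per group). Purple marks the 11 members higher and green the 1 lower at adjusted p below 0.05. The largest differences are *GINS1* at 0.65 and *E2F2* at -0.64.

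Of the 8 helicase and licensing genes, *MCM2* and *MCM7* rose. *MCM7*, a subunit of the helicase ring at chr7:100092233-100101940, was at 215, 235 and 256 CPM in siNT and 318, 343 and 333 CPM in siLTBP2. Its groups lay well apart, and the log2 fold change was 0.49 ± 0.09 (SE; adjusted p = 0.0043). *MCM2*, another subunit at chr3:127598410-127622436, was at 87.0, 95.4 and 108 CPM in siNT and 116, 129 and 122 CPM in siLTBP2. The gap between its groups was narrow, and the log2 fold change was 0.34 ± 0.10 (adjusted p = 0.0335), a call held in 1 of 6 fits with a library left out, the one without siNT replicate 3.

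The other ring subunits were not called together with them. *MCM5* had 0.31 ± 0.10 (adjusted p = 0.0542, and 7.58e-04 with the block). *MCM3* and *MCM4* had 0.12 ± 0.11 and 0.09 ± 0.10, and *MCM6* had -0.12 ± 0.10. The licensing ATPase gene *CDC6* had 0.43 ± 0.14 (adjusted p = 0.0588, and 2.34e-05 with the block), and *CDT1*, its partner in loading the ring, had 0.30 ± 0.12 (adjusted p = 0.1166, and 0.0013 with the block). The log2 ratio of *MCM7* to *MCM6* was 1.98 ± 0.07 in siNT and 2.59 ± 0.09 in siLTBP2 (SD, n = 3), a difference of 0.61 with exact permutation p = 0.1. That pair, and the others compared below, were chosen after their values were seen. The p of 0.1 is the smallest that 3 against 3 allows, so after such a choice it lends these pairs no support.

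Among the helicase activators, *GINS1* and *GINS4* rose, and they had the largest log2 fold changes of all members above 0. *GINS1*, a subunit of the 4-part GINS complex at chr20:25391008-25452700, was at 34.3, 44.3 and 40.1 CPM in siNT and 56.1, 61.3 and 68.9 CPM in siLTBP2. All 3 siLTBP2 libraries were above the siNT libraries, with a log2 fold change of 0.65 ± 0.11 (adjusted p = 0.0031). *GINS4* was at 23.2, 26.0 and 26.4 CPM in siNT and 34.6, 39.9 and 36.9 CPM in siLTBP2, also without overlap (0.56 ± 0.10; adjusted p = 0.0031). Together with *MCM7*, these were the 3 members called whichever library was left out.

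*GINS2* had 0.21 ± 0.13 and *GINS3* had -0.29 ± 0.17. Neither was called, and with the block *GINS3* was called lower (adjusted p = 0.0216). The log2 ratio of *GINS1* to *GINS3* went from 1.09 ± 0.13 to 2.03 ± 0.19, a difference of 0.95 (exact permutation p = 0.1). *CDC45*, which bridges the ring and GINS, had -0.02 ± 0.15, and *MCM10*, which helps the helicase start, had 0.12 ± 0.12.

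The subunits of a complex had unequal levels, given here as CPM per kilobase of the canonical transcript. Length was first taken over all annotated exons, and the canonical transcript was chosen after that order had been seen. *MCM7* was highest of MCM2-7 under both lengths, while the lowest was *MCM6* under canonical length and *MCM5* under all exons. The highest was 3.94 times the lowest in siNT and 6.02 times in siLTBP2, or 3.67 and 4.16 times over all exons. For GINS the values were 2.12 and 4.05 times, or 2.29 and 3.89 over all exons, where *GINS2* replaced *GINS1* as highest in siNT. For RFC2-5 they were 2.92 and 2.60 times, with *RFC5* lowest, or 4.14 and 3.64 times with *RFC4* lowest. The comparison of siLTBP2 with siNT for a gene does not depend on its length.

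**Figure D3:**
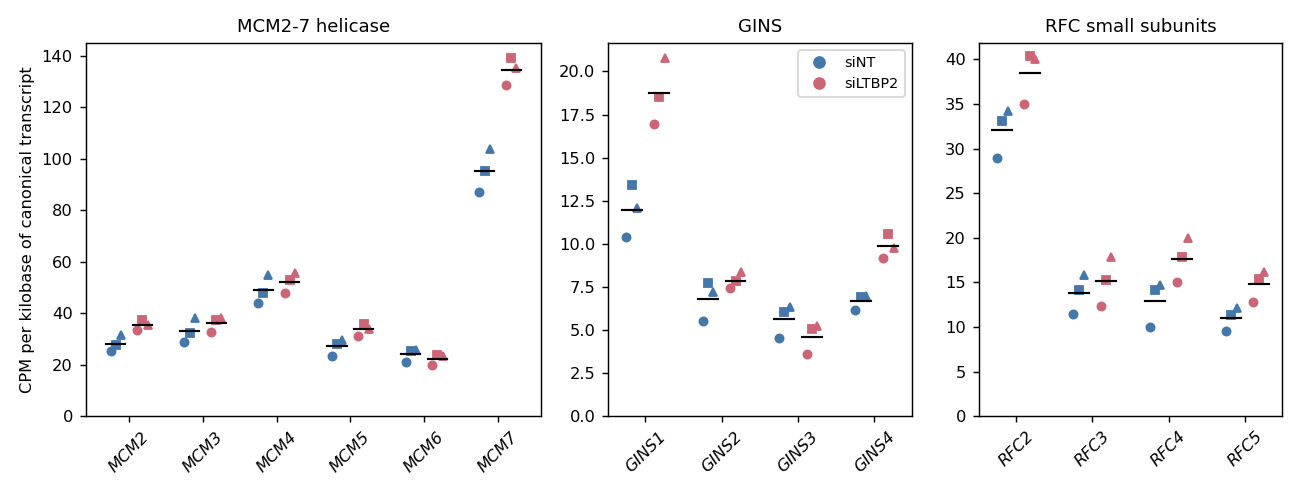
Level of each subunit in CPM per kilobase of canonical transcript in the siNT (blue) and siLTBP2 (red) libraries, where circles, squares and triangles are replicates 1, 2 and 3 and bars are means. *MCM7* stands above the other MCM genes in every library, and *GINS1* rises while *GINS3* does not.

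Of the clamp and its loader, only *RFC5* was called. *RFC5*, a small subunit of the loader at chr12:118013588-118033130, was at 20, 23.9 and 25.5 CPM in siNT and 27.1, 32.4 and 33.9 CPM in siLTBP2. The lowest siLTBP2 library was just above the highest siNT library (0.43 ± 0.12; adjusted p = 0.0326), and the call was lost without replicate 1 or 2 of siNT or replicate 2 or 3 of siLTBP2. Its exons share 186 bases with *WSB2* on the opposite strand, which had a log2 fold change of 0.35 (adjusted p = 0.0253), and whether counting used strand is not stated. Exons of 18 members overlapped some gene on the opposite strand. *RFC4* had 0.45 ± 0.16 and *RFC2* 0.26 ± 0.10 (adjusted p = 0.0713 and 0.087), both called with the block (9.91e-05 and 0.0045), and *RFC3* had 0.13 ± 0.15.

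*PCNA*, the second most abundant member per length, was at 145, 167 and 169 CPM in siNT and 158, 172 and 171 CPM in siLTBP2. The groups overlapped, with a log2 fold change of 0.06 ± 0.09 (adjusted p = 0.7118). The sliding clamp transcript therefore differed by less than the spread between libraries.

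Of 6 polymerase and primase genes, *POLA2*, the B subunit of polymerase alpha at chr11:65261913-65305959, rose. It was the least abundant member per length under both lengths, at 6.70, 7.54 and 7.29 CPM in siNT and 8.79, 9.98 and 10.4 CPM in siLTBP2. The groups did not overlap (0.44 ± 0.13; adjusted p = 0.0331). Its call held with siLTBP2 replicate 1 left out and was lost without any other library, and 2012 of its exonic bases also belong to a second annotated gene on the same strand. The catalytic subunits *POLA1* and *POLD1* had -0.02 ± 0.09 and -0.06 ± 0.11. *POLE*, the leading-strand polymerase, had 0.23 ± 0.09 (adjusted p = 0.0924, and 0.0112 with the block). Its partner *POLE2* had 0.15 ± 0.20, and the primase gene *PRIM1* had 0.16 ± 0.19.

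The pair that finishes Okazaki fragments was split. *FEN1*, the flap nuclease at chr11:61792911-61797238, was at 40.8, 48.7 and 56.9 CPM in siNT and 58.3, 68.0 and 72.6 CPM in siLTBP2. Its highest siNT and lowest siLTBP2 libraries almost met (0.44 ± 0.13; adjusted p = 0.0341), and the call went with either siNT replicate 1 or 2, or siLTBP2 replicate 2 or 3, left out. *LIG1*, the ligase, had -0.07 ± 0.09.

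Both ribonucleotide reductase genes rose. *RRM1*, the large subunit at chr11:4094707-4138932, was at 162, 163 and 175 CPM in siNT and 206, 209.5 and 215 CPM in siLTBP2. Replicates were tight and the groups lay apart (0.33 ± 0.08; adjusted p = 0.0145), though the call needed siNT replicate 1 and siLTBP2 replicate 2. *RRM2*, the S-phase subunit at chr2:10120698-10211725, was at 338, 341 and 366 CPM in siNT and 411, 418 and 447 CPM in siLTBP2 (0.29 ± 0.09; adjusted p = 0.0404). Its groups did not overlap, but its call was lost whichever library was left out.

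*TYMS*, thymidylate synthase, was at 156, 144 and 147 CPM in siNT and 197, 178 and 167 CPM in siLTBP2. No library overlapped, yet the call was missed (0.28 ± 0.09; adjusted p = 0.0518, and 0.0031 with the block). Behind *CCND1* and *PCNA*, the next highest level per length was that of *TYMS* over all exons and of *RRM2* over canonical transcripts.

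The cyclin and E2F genes went in different directions. *CCND1*, cyclin D1 at chr11:69641156-69654474, was the most abundant member, at 1599, 1126 and 1428 CPM in siNT and 1912, 1950 and 1818 CPM in siLTBP2. The siNT libraries were widely spread and all lay below siLTBP2 (0.45 ± 0.13; adjusted p = 0.0348). Leaving out siNT replicate 2 or 3, or siLTBP2 replicate 1 or 2, ended the call. The cyclin E genes *CCNE1* and *CCNE2*, which act later in G1, had -0.31 ± 0.15 and -0.21 ± 0.18 and were not called, and with the block *CCNE1* was called lower (adjusted p = 0.042). The log2 ratio of *CCNE1* to *CCND1* was -6.22 ± 0.13 in siNT and -7.00 ± 0.25 in siLTBP2, a difference of -0.78 (exact permutation p = 0.1).

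*E2F2*, an activator E2F at chr1:23506438-23531233, was at 20.7, 24.3 and 24.0 CPM in siNT and 11.6, 18.3 and 14.3 CPM in siLTBP2. The highest siLTBP2 value was under the lowest siNT value, and the log2 fold change was -0.64 ± 0.16 (adjusted p = 0.016). Without siNT replicate 2 its call was lost. *E2F1*, the related activator, had -0.05 ± 0.18, and the log2 ratio of *E2F2* to *E2F1* differed by -0.61 between groups (exact permutation p = 0.1).

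Of the chromatin and ubiquitin ligase genes, *UHRF1*, which guides maintenance of DNA methylation at chr19:4903080-4962154, rose. It was at 114, 130.3 and 147 CPM in siNT and 166, 179 and 199.6 CPM in siLTBP2, with no overlap (0.48 ± 0.11; adjusted p = 0.0124), and its call was lost without siNT replicate 1. *CHAF1A*, which deposits histones behind the fork, had 0.24 ± 0.13, and *DTL*, part of the ligase that destroys CDT1, had 0.26 ± 0.13. Both were called with the block (adjusted p = 0.0112 and 0.0046). *CHAF1B* had 0.02 ± 0.11.

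**Figure D4:**
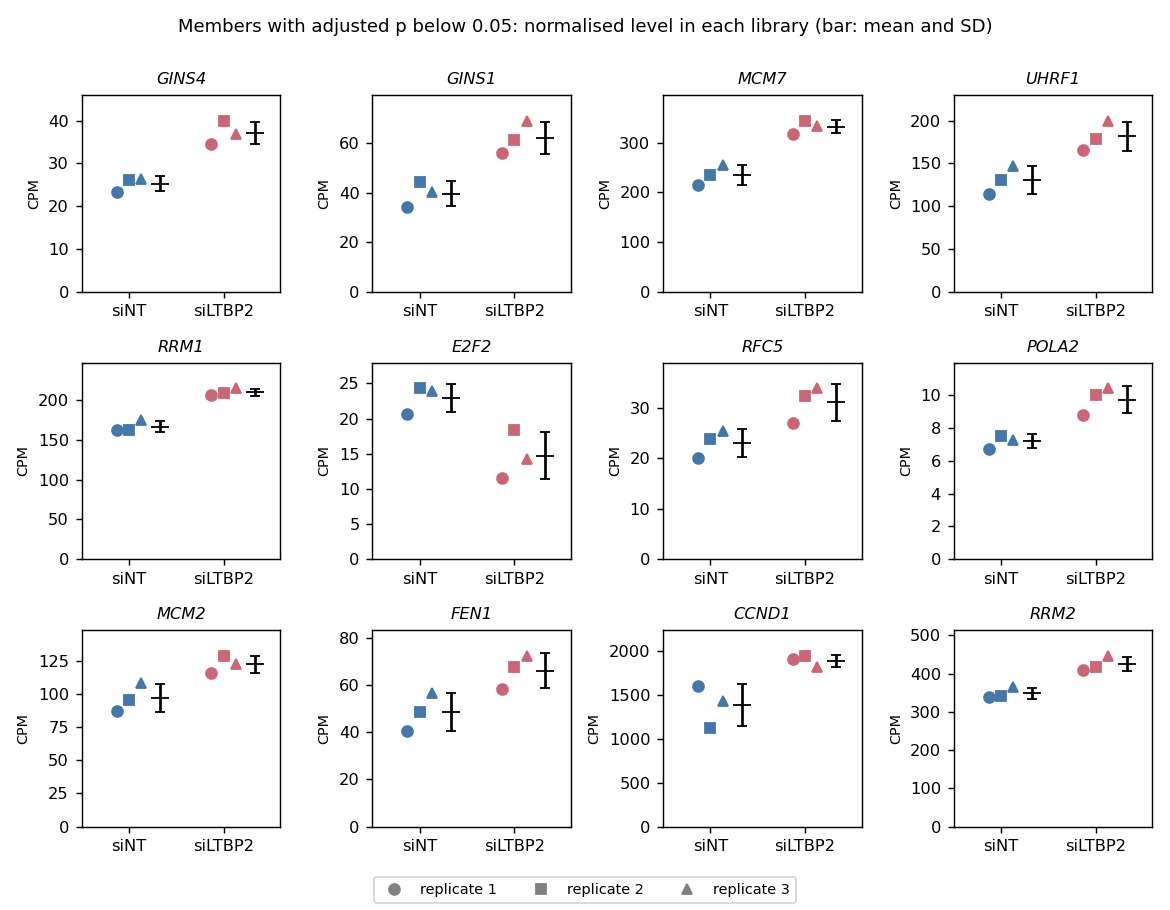
Level in CPM of the 12 members with adjusted p below 0.05 in each siNT (blue) and siLTBP2 (red) library, with mean and SD as bars and axes from 0. In each panel the groups do not overlap, and *E2F2* is the one panel where siLTBP2 is lower.

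Every siLTBP2 library was above every siNT library in 17 members, against 18.7% of all genes, and below in 1, against 18.3%. Replicate 1 was the lowest of its group in 36 of 39 members in siNT and in 35 in siLTBP2, where about 32.5% and 32.9% of all genes were lowest in it. The median log2 level relative to the siNT mean was -0.18, 0.01 and 0.13 in siNT replicates 1, 2 and 3, and 0.04, 0.25 and 0.33 in siLTBP2. Replicate 1 of siLTBP2 thus had a lower median than replicate 3 of siNT. Set against the library of the same number, siLTBP2 was higher in 32, 30 and 29 members, and in all 3 pairs for 26 (66.7%, against 29.8% of all genes).

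**Figure D5:**
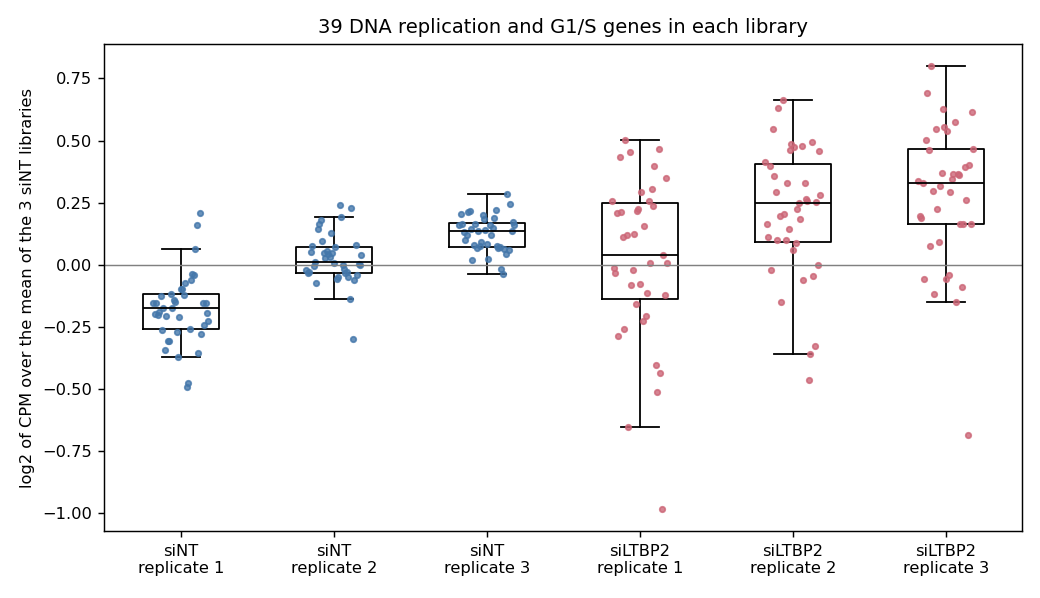
Log2 of CPM over the siNT mean for the 39 members (points) in each library, with median and quartiles as boxes and whiskers to the most extreme point within 1.5 times the box length. Medians run from -0.18 to 0.13 in siNT and from 0.04 to 0.33 in siLTBP2, and replicate 1 is lowest in both groups.

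The summed level of the members was 3785 to 4306 CPM in siNT and 4850 to 5145 CPM in siLTBP2. Without *CCND1* it was 2412 to 2878 CPM and 2939 to 3306 CPM, so the groups stayed apart by a small margin.

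The 6 further lists covered cell-cycle genes that are not among the 39. Of 40 other replication fork genes, 6 rose and 2 fell, a share of 20% that is close to the 19.3% of all genes, with a median log2 fold change of 0.20. With the replicate block 23 of the 40 were called, 20 higher and 3 lower, where the block called 36.2% of all genes. The log2 fold change was above 0 in 77.5% of the 40, against 74.4% of the 39 members and 49.3% of all genes. *DBF4*, the activating subunit of the CDC7 kinase, rose by 0.47 ± 0.11, and *RPA1*, of the single-strand binding complex, by 0.36 ± 0.09, a call lost without replicate 1 or 2 of siNT or replicate 2 of siLTBP2. *CHTF18*, of an alternative clamp loader, had -0.62 ± 0.14, and *POLD2*, of polymerase delta, had -0.39 ± 0.10, with its call lost without siNT replicate 2 or 3 or siLTBP2 replicate 1 or 3.

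Of 20 other nucleotide supply genes, 1 rose, *DTYMK* (thymidylate kinase, 0.50 ± 0.09), a share of 5% that is below the 19.3% of all genes, and the median was 0.04. Of 28 other G1/S regulators, 7 rose and 1 fell (28.6%, against the same 19.3%), with a median of 0.16. *E2F7*, a repressor E2F, was at 42.4, 37.9 and 57.3 CPM in siNT and 109, 101 and 134 CPM in siLTBP2 (1.32 ± 0.15; adjusted p = 3.07e-04). *E2F5* rose by 1.00 ± 0.17 and *CDK2*, the partner of cyclin E, by 0.63 ± 0.14. *CCND2* was near 0, at 0.11, 0.06 and 0.04 CPM in siNT and 0.69, 0.80 and 0.36 CPM in siLTBP2 (3.14 ± 0.49).

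Of 8 CDK inhibitor genes, 3 rose (37.5%, where 19.3% of all genes were called). *CDKN1C* went from 0.87 to 1.28 CPM in siNT to 2.18 to 3.19 CPM in siLTBP2 (1.32 ± 0.23). *CDKN3* rose by 0.38 ± 0.12 and *CDKN2C* by 0.29 ± 0.09. The *CDKN2C* call was lost whichever library was left out, and the *CDKN3* call held only without siNT replicate 2. Of 20 fork protection and checkpoint genes, 5 rose and none fell. That was 25.0%, against 19.3% of all genes called in either direction and 9.76% called higher. The log2 fold change was above 0 in 17 of the 20, with a median of 0.23. With the block 12 were called higher and 1 lower, where 18.4% and 17.9% of all genes were. Among the 5 were *WEE1*, which restrains CDK1 (0.59 ± 0.13), *ATRIP* (0.43 ± 0.10), *BRCA2* (0.43 ± 0.12) and *ATR* (0.24 ± 0.07). Whichever library was left out, *ATR* lost its call. *BRCA2* lost it without siNT replicate 1 or siLTBP2 replicate 2 or 3, and *ATRIP* without siLTBP2 replicate 2.

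Of 30 G2/M genes, 21 rose and none fell (70.0%, against 19.3% of all genes), with a median of 0.48. *PLK1*, the mitotic kinase, was at 82.3, 87.2 and 101 CPM in siNT and 176, 175 and 186 CPM in siLTBP2 (0.99 ± 0.09; adjusted p = 1.09e-04). *TPX2* rose by 0.66 ± 0.08, *AURKA* by 0.64 ± 0.09 and *CENPF* by 0.63 ± 0.09. The medians of the G2/M genes and of the 39 members, 0.48 and 0.23, were not tested against each other.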

How the data were processed

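The labels describe stranded total RNA libraries. According to the submitters' processing notes, bcl2fastq, STAR 2.7.1a, HTSeq 0.11.2 and the build GRCh38 were used. The deposited values are whole-number counts per gene, made by the authors without normalisation. The annotation release and the strand setting of counting were not stated in what was read here. Gene models came from GENCODE 44, which held 60462 of the 60663 genes, 95.7% with the same start. Genes were filtered by filterByExpr, scaled by TMM and tested in edgeR 4.0.16 (quasi-likelihood, two-sided, R 4.3.3), with Benjamini-Hochberg adjustment over 16920 genes. The study's likelihood ratio test was run as an alternative, as was DESeq2 1.42.0. SE was obtained as the size of the log2 fold change over √F. The fit was also run on simulated counts with known fold changes. Those counts carried no effect of replicate number, so that run did not cover the shared deviations of same-numbered libraries.

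Replicate numbers come from the labels. Same-numbered libraries correlated in their deviations from group means (log2 of CPM + 0.5; r = 0.44, 0.19 and 0.57 over 16920 genes), each over the 0.1 set as the minimum, so the block is given. With a pseudocount of 0.01, r was 0.28, 0.07 and 0.40, and the second pair missed it. Replicates differed beyond sampling noise (chi-square per degree of freedom 24.6 to 48.1). Members and lists were chosen with earlier results of these data known. Values per library were printed for members with adjusted p below 0.05 and the 3 of highest level per length, and from other lists at most 4 called genes of smallest p were named.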

Additional observations from a re-analysis of the deposited data

How the results depend on the processing

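DESeq2 and the study's likelihood ratio test each called 16 members, 15 of them higher, and 3595 and 3803 of all genes. The number of members called stayed at 12 with RLE and upper-quartile factors. Under each of the other low-count filters it was 14, with 13 higher. With total counts it was 7, 6 of them higher, and *CHAF1B* turned to -0.02. Total counts shifted all genes by -0.038 (log2). At adjusted p below 0.01, 3 members were called, 3 higher and 0 lower, and 1550 of all genes. With the replicate block 23 were called, 20 higher and 3 lower, and 6131 of all genes, and the block changed no call beyond the 11 members gained. Leaving out 1 library gave 5 to 12 members called, 4 to 11 higher and 0 to 1 lower, and 2158 to 2781 genes, and a member median of 0.13 to 0.28. The 5 came when replicate 1 or 2 of siNT, or replicate 2 of siLTBP2, was dropped, and dropping siLTBP2 replicate 3 left 7 higher. The 0 lower came without siNT replicate 2, and the 2158 genes without siLTBP2 replicate 2. Fewer libraries entered these fits. The direction changed among these for *CDC45* (-0.17 to 0.09), *PCNA* (-0.01 to 0.10), *POLA1* (-0.08 to 0.02), *POLD1* (-0.14 to 0.04), *POLE2* (-0.05 to 0.30), *PRIM1* (-0.03 to 0.28), *E2F1* (-0.22 to 0.12) and *CHAF1B* (-0.06 to 0.09), none of them called in the full fit. Over 546 refits of single members, 463 kept direction and call, 38 lost the call, 30 gained it and 15 changed direction. Other causes were not tested. The length over all exons was added as an alternative after seeing the data, and its values stand in the report.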
